A study of Canis lupus familiaris with 12 samples.

Results

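The genes described here are 4 hydrolases of the lysosome, TPP1, CTSA, GLB1 and GUSB, and the endosomal chloride-proton exchanger CLCN3, measured in a dog kidney cell line kept in acid or control medium. Their members are all non-control probes of a one-colour Agilent dog array whose target is a RefSeq transcript of 1 of these 5 genes. That rule found 18 probes: 1 for TPP1, 4 for CTSA, 9 for GLB1, 1 for GUSB and 3 for CLCN3. They belong to 5 of the 944 genes that could be given a symbol, and those 944 genes account for 1484 of the array's 43603 probes (3.40%). Each probe is reported on its own, because probes of 1 gene bind the same RNA and are not replicates.

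Madin-Darby canine kidney (MDCK) cells are an established epithelial line derived from the tubule of the dog kidney. Confluent cells were moved into DMEM/Ham's F-12 without serum at pH 7.4 for 24 h, and then spent 24 h in medium at pH 7.0, whose bicarbonate had been lowered, or at pH 7.4 as the control. There were 3 biological replicates with RNA extracted on separate dates, each giving 1 extract per pH, and each of the 6 extracts was hybridised to 2 arrays, so that a group had 6 arrays. The study asked about inflammatory gene expression under acid stress, and the lysosomal genes were measured on the same arrays. The labels name no genetic change or drug in either group. Medium bicarbonate and pH differ together between the groups, so their effects cannot be told apart. All extracts come from 1 cell line, so the p-values refer to the spread between extracts of that line.

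The lysosome is the acidic compartment in which a cell breaks down proteins, lipids and sugar chains. Its interior is acidified by the vacuolar H+-ATPase, a proton pump, while chloride carried by exchangers of the CLC family balances the charge of the pumped protons. Most lysosomal hydrolases work best at acid pH, and many reach the lysosome by a mannose-6-phosphate tag that sorting receptors such as IGF2R recognise. In the kidney tubule, lysosomes digest protein taken up from the filtrate.

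Each value is the log2 processed signal of a probe minus the 75th percentile of its array, so 0 is the level of the array's 75th percentile probe. A change is the value at pH 7.0 minus that at pH 7.4 and is given with its standard error (SE), over 3 pairs of extracts. Levels of different probes are not compared, since probes bind with different strength. A value is a share of the labelled RNA, so fewer cells with a transcript and less transcript per cell cannot be told apart.

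Detection, meaning a signal well above background as the scanner software calls it, covered 49.4% to 54.1% of probes on the 4 arrays of biological replicate 2 and 62.2% to 70.4% on the remaining arrays. Each biological replicate lay on its own slide and had its own scan date, so replicate, slide and scan cannot be told apart, and all 3 are held constant within a pair. Among the epithelial markers, the tight junction genes OCLN and TJP1 were well above background on 12 of 12 arrays, CLDN2 on 8 and UMOD, a product of the thick ascending limb, on 0; these are 4 of 19 listed markers, the only ones with a named probe. Of 8 named markers of other cell types, VWF and COL1A1 were well above background on 12 arrays, PDGFRB on 10, CD8A on 7, CD4 on 5, KDR and DES on 3 and MS4A1 on 0. Of the epithelial markers tested, CLDN2 had a change of 1.15 ± 0.29 (limma adjusted p = 0.174), OCLN 0.26 ± 0.23 and TJP1 -0.096 ± 0.24. CLDN2 was higher in all 3 replicates, as were 18% of all tested probes. It stood at -0.33 with normexp, and was above 0 with outlying local backgrounds replaced before normexp. The 4 markers of other cell types that entered the test had changes between -0.014 and 0.43, and the part of either marker list in the lysosomal values was not tested. Of the 18 member probes, 17 were well above background on all 12 arrays and TPP1 on 9. No member spot was saturated, and 0 were marked as outliers.

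In acid medium 14 of the 15 hydrolase probes had a higher mean than at pH 7.4, with a median change of 0.46, and with normexp background correction 8 of the 15 did. Normexp moved the median of all tested probes to -0.19, and 13 of the 15 stood above that median; with outlying local backgrounds replaced before normexp, 14 of the 15 were above 0. All 3 CLCN3 probes had a lower mean, also with normexp. None of these changes passed the test. limma with Benjamini-Hochberg adjustment over 27138 tested probes gave 0 member probes of 18 at an adjusted p under 0.05, and over the whole array 0 higher and 0 lower, a background of 0%. At an unadjusted p under 0.05 there were 5 member probes (3 of GLB1 higher, 2 of CLCN3 lower), beside 12.2% of all tested probes, 6.48% higher and 5.77% lower. The change had 1 direction in all 3 biological replicates for 13 of the 18 probes, beside 33.7% of all tested probes: 11 were higher in each replicate (18% of all probes) and 2 were lower in each (15.7%). Because 9 of the 18 probes report 1 gene, these counts do not stand for 18 separate results. Estimates above 0 were 51.3% and estimates below 0 were 48.7% of all tested probes. Over the 12 arrays, 0 member probes had groups that did not overlap, beside 0.848% of all probes in the higher direction and 0.789% in the lower.

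**Figure D1:**
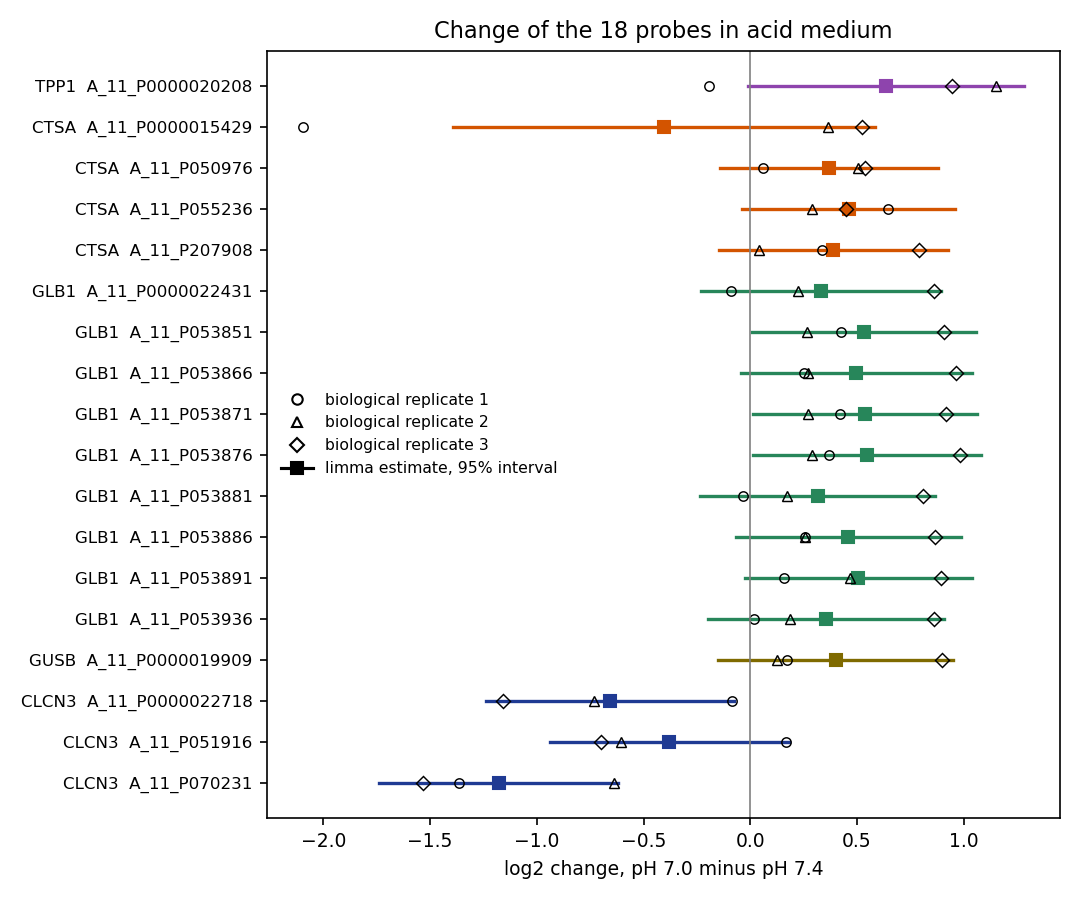
Change of each of the 18 probes, as log2 value at pH 7.0 minus pH 7.4, with the limma estimate (square) and its 95% interval (bar) and the change in each biological replicate (circle, triangle, diamond). The hydrolase probes lie right of 0 except 1 probe of CTSA, whose circle stands at -2.09 (with normexp background correction 6 more lie left of 0), and the 3 CLCN3 probes lie left of 0; none passed the test.

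Among the hydrolases, the median change was largest in biological replicate 3, though not for every probe. The median change over the 15 hydrolase probes was 0.17 in biological replicate 1, 0.27 in biological replicate 2 and 0.87 in biological replicate 3. The arrays of biological replicate 3 had 62.2% to 65.3% of probes well above background and those of biological replicate 1 had 65.6% to 70.4%. The median local background was 23 to 24 on the arrays of biological replicate 3 and 36 to 45 on the remaining arrays. Any part of slide or scan in the size of the third pair's change was not tested.

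TPP1, tripeptidyl peptidase 1, is a serine protease that removes tripeptides from the free end of proteins in the lysosome, and its loss causes a neuronal ceroid lipofuscinosis. Its single probe, A_11_P0000020208, was dim. Its signal cleared background well on 5 of the 6 pH 7.0 arrays and 4 of the 6 pH 7.4 arrays. At pH 7.0 its lowest, median and highest arrays stood at -5.58, -4.87 and -2.48, and at pH 7.4 at -6.25, -5.17 and -3.90. The groups therefore overlapped. The means over extracts were -4.52 ± 1.05 at pH 7.0 and -5.16 ± 0.72 at pH 7.4 (SD, n = 3 each). The change was 0.64 ± 0.29 (SE), or 1.55-fold, with a 95% interval from -0.011 to 1.28, and it did not pass (limma adjusted p = 0.414). It was -0.19 in biological replicate 1, 1.15 in biological replicate 2 and 0.95 in biological replicate 3, so that 2 of 3 pairs were higher. The 3 arrays on which the probe was not well above background all belong to biological replicate 2 (both at pH 7.4 and 1 at pH 7.0), so the 1.15 is a difference from an extract with no array well above background. Without that replicate the change was 0.38. The duplicate arrays of 1 extract differed by up to 1.89, at pH 7.0 in biological replicate 3, a distance larger than the change itself. Without pH 7.0 array 5, the highest array of that extract, the change was 0.32, and with normexp background correction it was -0.38.

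CTSA encodes cathepsin A, the protective protein, which is a serine carboxypeptidase and also holds GLB1 and the sialidase NEU1 in a complex that shields them from breakdown. Its probe A_11_P050976 was the steadiest, with a duplicate SD of 0.14 log2. Its extracts stood at 3.76, 4.08 and 3.87 at pH 7.0 and at 3.70, 3.57 and 3.33 at pH 7.4 in biological replicates 1, 2 and 3. Every pH 7.0 extract was above its partner, by 0.061, 0.51 and 0.54, and in each pair both duplicates at pH 7.0 were above both at pH 7.4, which 4.3% of all tested probes also showed. The means were 3.90 ± 0.16 and 3.53 ± 0.18 (SD, n = 3 each) and the change was 0.37 ± 0.23 (SE), which did not pass (limma adjusted p = 0.562). The arrays still overlapped between groups, with 3.69 to 4.19 at pH 7.0 and 3.22 to 3.70 at pH 7.4.

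Of the other CTSA probes, A_11_P055236 and A_11_P207908 were alike and A_11_P0000015429 stood apart. A_11_P055236 changed by 0.46 ± 0.22 (adjusted p = 0.443 in limma) with 0.64, 0.29 and 0.45 in the 3 replicates. A_11_P207908 changed by 0.39 ± 0.24 (limma adjusted p = 0.556) with 0.34, 0.042 and 0.79. Both stood between -3.93 and -0.77 on all 12 arrays and had duplicate SDs of 0.67 and 0.54, above the median of 0.30 over all tested probes. With normexp they stood at -0.14 and -0.15, which is 0.047 and 0.040 above the median of all tested probes under that correction. The fourth probe, A_11_P0000015429, had an estimate of -0.40 ± 0.44 (limma adjusted p = 0.772), with -2.09 in biological replicate 1 against 0.36 and 0.52 in the others. Its extract at pH 7.4 in biological replicate 1 stood at -0.16 and the pH 7.0 extract of the same pair at -2.26. Without biological replicate 1 its change was 0.44, so the sign of this probe rests on 1 pair. The 6 pairs of CTSA probes differed by a median root mean square of 0.67 over the 6 extracts after each probe was centred on its mean. The smallest difference was 0.22, between A_11_P055236 and A_11_P207908, and the largest was 1.25. Without A_11_P0000015429 the median was 0.49 and the largest 0.62.

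GLB1 is the lysosomal beta-galactosidase, which removes galactose from gangliosides and keratan sulfate. Senescent cells carry more of its activity, and it is widely stained as a marker for them. All 9 of its probes had a higher mean at pH 7.0, with changes from 0.32 to 0.55 and a median of 0.50, and with normexp background correction 3 of the 9 were just below 0 (-0.10, -0.067 and -0.0051). Relative to the median of all tested probes under that correction, those 3 probes stood at 0.090, 0.12 and 0.19. None passed (limma adjusted p from 0.397 to 0.661), and 3 probes, A_11_P053851, A_11_P053871 and A_11_P053876, had an unadjusted p under 0.05. The largest change was 0.55 ± 0.24 at A_11_P053876. The 9 probes moved together from extract to extract, with a root mean square difference between centred probes of 0.064 to 0.28 (median 0.15 over 36 pairs of probes), against a median of 0.67 for all CTSA probes and 0.49 without A_11_P0000015429. Their changes were -0.091 to 0.42 in biological replicate 1 (7 of 9 above 0), 0.17 to 0.47 in biological replicate 2 and 0.81 to 0.98 in biological replicate 3 (9 of 9 above 0 in each).

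The brightest GLB1 probe, A_11_P0000022431, stood at 1.09, 1.01 and 2.23 at pH 7.0 and at 1.18, 0.78 and 1.37 at pH 7.4 in biological replicates 1 to 3. The pH 7.0 extract of biological replicate 3 was the highest of the 6, and that of biological replicate 1 was below its partner. The change was 0.33 ± 0.25 (SE) with a 95% interval from -0.23 to 0.89 (limma adjusted p = 0.650). Leaving out biological replicate 3 took this change to 0.067. The 2 control arrays of biological replicate 1 disagreed on this gene: all 9 probes were lower on array 1 than on array 2, by a median of 1.09, when the median difference over all tested probes was 0.25 in the other direction. Without pH 7.4 array 1 the 9 changes ranged from 0.22 to 0.33, and without pH 7.4 array 2 from 0.38 to 0.82.

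**Figure D2:**
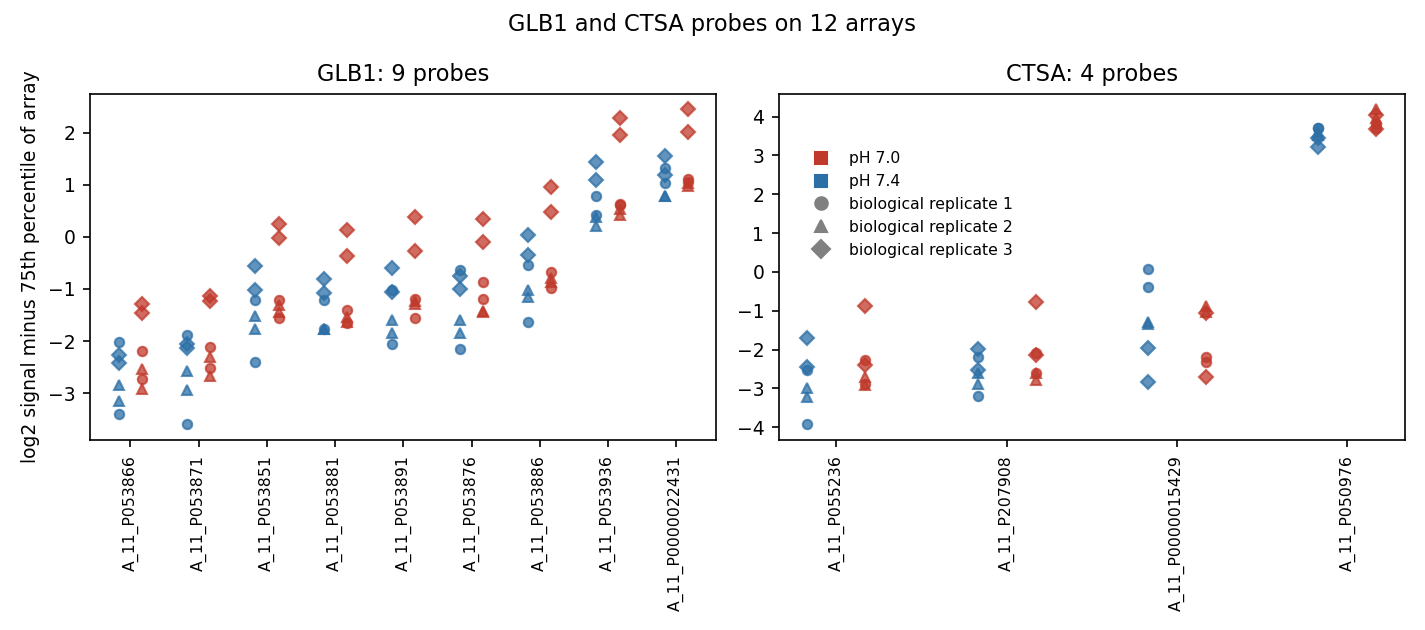
Log2 value of each GLB1 and CTSA probe on the arrays at pH 7.0 and pH 7.4, relative to the array's 75th percentile, with biological replicates 1, 2 and 3 as circles, triangles and diamonds and pH 7.0 in red, pH 7.4 in blue. The GLB1 probes keep a similar profile over the extracts and are highest at pH 7.0 in biological replicate 3. Among the CTSA probes, A_11_P055236 and A_11_P207908 are alike, whereas the others differ from them and from each other.

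GUSB is beta-glucuronidase, which cuts glucuronic acid from dermatan, heparan and chondroitin sulfates, and it is often used as a reference gene. Its probe A_11_P0000019909 stood at 0.79, 0.66 and 1.28 at pH 7.0 and at 0.61, 0.54 and 0.38 at pH 7.4 in biological replicates 1, 2 and 3. All 3 pairs were higher at pH 7.0, by 0.17, 0.13 and 0.90. The groups overlapped, because control arrays at 0.97 and 0.59 lay within the range of the pH 7.0 arrays, 0.58 to 1.38. The means were 0.91 ± 0.33 and 0.51 ± 0.12 (SD, n = 3 each), a change of 0.40 ± 0.25 (SE) with a 95% interval from -0.15 to 0.95 that did not pass (limma adjusted p = 0.557). Without biological replicate 3 the change was 0.15. The other named reference genes, TFRC, GAPDH and HPRT1, had brightest probes with changes of 0.13 ± 0.22, 0.13 ± 0.23 and -0.030 ± 0.22, and with normexp TFRC stood at -0.13 and HPRT1 at 0.20. With outlying local backgrounds replaced before normexp, all 4 named reference genes, GUSB among them, were above 0. The brightest GAPDH probe was saturated on all 12 arrays. Its other tested probes had changes from -0.078 to 0.14, and the other HPRT1 probe had 0.077.

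**Figure D3:**
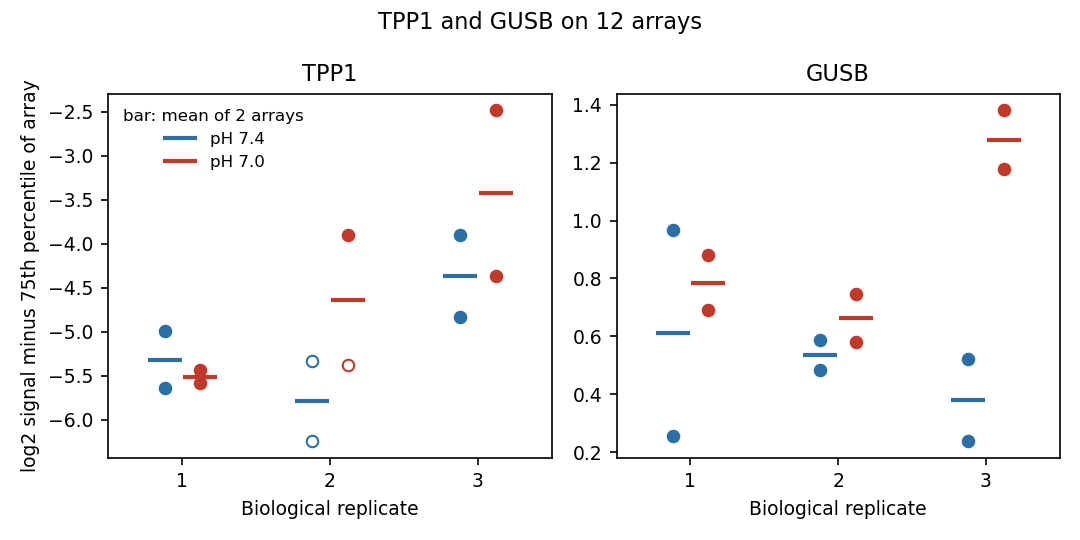
Log2 value of the TPP1 and the GUSB probe on each of the 12 arrays, relative to the array's 75th percentile, by biological replicate, with pH 7.0 in red and pH 7.4 in blue and a bar at the mean of the 2 arrays of an extract; open circles are arrays on which the probe was not well above background. The TPP1 arrays run from -6.25 to -2.48 with wide gaps between duplicates, and the GUSB arrays run from 0.24 to 1.38.

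CLCN3 encodes ClC-3, which exchanges chloride for protons across the membranes of endosomes and related vesicles. Its 3 probes had changes of -1.18, -0.66 and -0.38, all lower at pH 7.0, and 2 of them were lower in every biological replicate. The largest was at A_11_P070231. At pH 7.0 its extracts stood at -1.40, -1.27 and -0.89, with arrays between -1.69 and -0.66. At pH 7.4 the extracts stood at -0.033, -0.63 and 0.64, with arrays between -0.91 and 0.80. In every pair both duplicates at pH 7.0 were below both at pH 7.4, which 3.78% of all tested probes also showed, but the groups overlapped because the highest pH 7.0 array, in biological replicate 3, lay above the lowest pH 7.4 array, in biological replicate 2. The means were -1.19 ± 0.26 at pH 7.0 and -0.0093 ± 0.64 at pH 7.4 (SD, n = 3 each). The change of -1.18 ± 0.25 (SE), with a 95% interval from -1.74 to -0.62, is 2.26-fold lower (unadjusted p = 0.000912 by limma's moderated test), and it did not pass after adjustment (adjusted p = 0.128). It was -1.36, -0.64 and -1.53 in biological replicates 1, 2 and 3.

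This was the member probe whose call depended on the settings. It passed with the duplicate arrays as a random block (limma adjusted p = 0.0202), with only probes above background on all arrays (0.0492), with a trended robust prior (0.0432) and without biological replicate 2 (0.00706, change -1.45). In the same order, these settings called 396, 90, 126 and 200 probes higher over the whole array. They called 294, 44, 70 and 447 lower, where the reported fit called 0 in either direction. Over all 29 alternatives the adjusted p ran from 0.00706 to 0.9999, the highest without the replicate block, and the change from -1.45 to -1.002. Without that block every member probe had an adjusted p of 0.9999 in limma, and the unadjusted p of this probe was 0.0142.

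The probe A_11_P0000022718 was the brightest of CLCN3 and the most repeatable of the 18, with a duplicate SD of 0.080. Its extracts stood at 1.01, 1.13 and 0.27 at pH 7.0 and at 1.09, 1.87 and 1.43 at pH 7.4, with each pH 7.0 extract below its partner (-0.086, -0.73 and -1.16). In each pair the duplicates did not overlap, which 3.78% of all tested probes also showed in the lower direction. In biological replicate 1 the higher pH 7.0 array stood at 1.02 and the lower pH 7.4 array at 1.06. The change was -0.66 ± 0.26 (SE) with a 95% interval from -1.24 to -0.078, an unadjusted p of 0.0302 and an adjusted p of 0.350 in limma. Without biological replicate 3 it was -0.41 and without biological replicate 1 -0.94. The dimmest probe, A_11_P051916, changed by -0.38 ± 0.25 (limma adjusted p = 0.591) and was above its partner in biological replicate 1 (0.17, -0.61 and -0.70). Its change was -0.65 without biological replicate 1, -0.22 without biological replicate 3, -0.21 without pH 7.4 array 2 and -0.16 with normexp after outlying local backgrounds were replaced. The probes differed in size, with root mean square differences between the centred probes from 0.30 to 0.99. The RefSeq annotation holds 2 transcripts of this gene, of which the array names 1 for all 3 probes; which transcripts each probe binds was not examined.

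**Figure D4:**
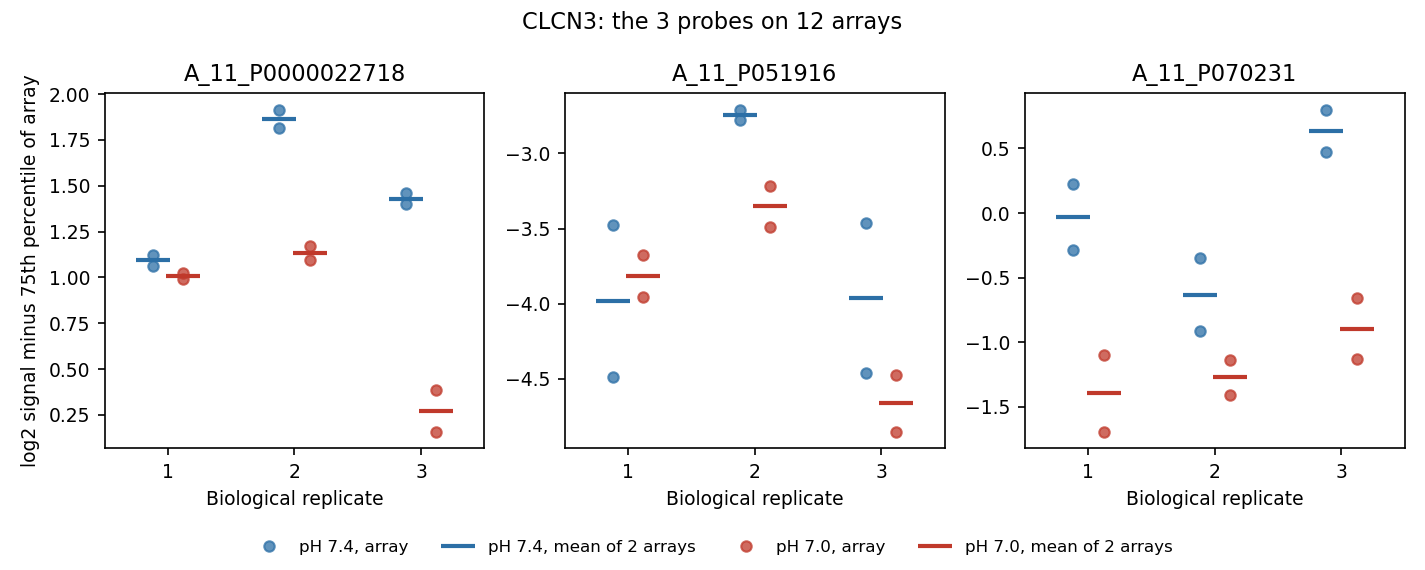
Log2 value of each of the 3 CLCN3 probes on the 12 arrays, relative to the array's 75th percentile, by biological replicate, with pH 7.0 in red and pH 7.4 in blue and a bar at the mean of the 2 arrays of an extract. For A_11_P070231 and A_11_P0000022718 the pH 7.0 arrays lie below the pH 7.4 arrays within each of the 3 pairs, and the distance differs between pairs.

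The hydrolase estimates were set beside the rest of the lysosome. Of 56 listed hydrolase genes, 17 had a named probe and 16 were tested, by the brightest probe of each gene. Of these 13 had a higher and 3 a lower mean at pH 7.0, with 0 passing in either direction and 0 at an unadjusted p under 0.05, and the median change was 0.19. With normexp 8 were higher and 8 lower, with a median of 0.089, where the median of all tested probes was -0.19. The same median was 0.077 over the 599 tested named genes, 363 of them higher and 236 lower, and 0.011 over all tested probes. Without TPP1, CTSA, GLB1 and GUSB, 9 of the 12 other hydrolases were higher and 3 lower, with a median of 0.13. With normexp 5 of them were higher and 7 lower, with a median of -0.029. With outlying local backgrounds replaced before normexp, 9 of the 12 were higher and 3 lower, with a median of 0.12. Of all 16 tested hydrolases, 13 were then higher and 3 lower. The lowest unadjusted p-values in this list belonged to TPP1, PLA2G15, GALC and GUSB. PLA2G15, a lysosomal phospholipase, had a change of 0.47 ± 0.23 and was higher in all 3 replicates. GALC, galactocerebrosidase, had a change of -0.44 ± 0.24 and was lower in all 3. Of the 16 tested hydrolases, 4 were higher and 1 was lower in all 3 replicates, beside 18% and 15.7% of all tested probes.

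Membrane and sorting proteins of the lysosome stood near 0 as a list in the reported fit. Of 7 tested genes, 3 were higher and 4 lower, with a median of -0.011. Of these, 0 passed in limma and 0 had an unadjusted p under 0.05. Quantile normalization gave 4 higher and 3 lower, and the 75th percentile over probes detected on all arrays gave 2 higher and 5 lower. With normexp the median was -0.20, where that of all tested probes was -0.19. With outlying local backgrounds replaced before normexp it was 0.0055. The iron and manganese transporter SLC11A1 was at -0.50 ± 0.26, and the sorting receptor IGF2R at 0.33 ± 0.24. The cholesterol carriers NPC2 and NPC1 were at 0.26 ± 0.22 and -0.064 ± 0.22, the latter at 0.050 with normexp.

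For acidification, 2 subunits of the vacuolar H+-ATPase were tested and 0 passed. ATP6V1G2 had a change of 0.54 ± 0.24 and was higher in all 3 replicates, as were 18% of all tested probes. Its unadjusted p was 0.0482 and its adjusted p 0.403 in limma. It was well above background on 8 of 12 arrays, and with normexp its change was -0.48. With outlying local backgrounds replaced before normexp, it was above 0. ATP6V0E1 had a change of 0.067 ± 0.30, its other probe had -0.13, and quantile normalization took the first to -0.0053. The one other tested gene of the CLC family was CLCN1, the chloride channel of skeletal muscle, at 0.65 ± 0.25 (limma adjusted p = 0.340). It was above 0 in all 3 replicates, as were 18% of all tested probes. With normexp it was at -0.14. With outlying local backgrounds replaced before normexp, it was again above 0.

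Of the regulators of autophagy and lysosome formation, 3 were tested and 0 passed. The late endosome GTPase RAB7A stood at 0.52 ± 0.25, and MITF, a transcription factor of the family that also holds TFEB, at 0.40 ± 0.23. FLCN, folliculin, which acts on that family through nutrient signalling, stood at -0.46 ± 0.23. Each of these 3 had 1 direction in all 3 biological replicates, which 33.7% of all tested probes also showed.

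**Figure D5:**
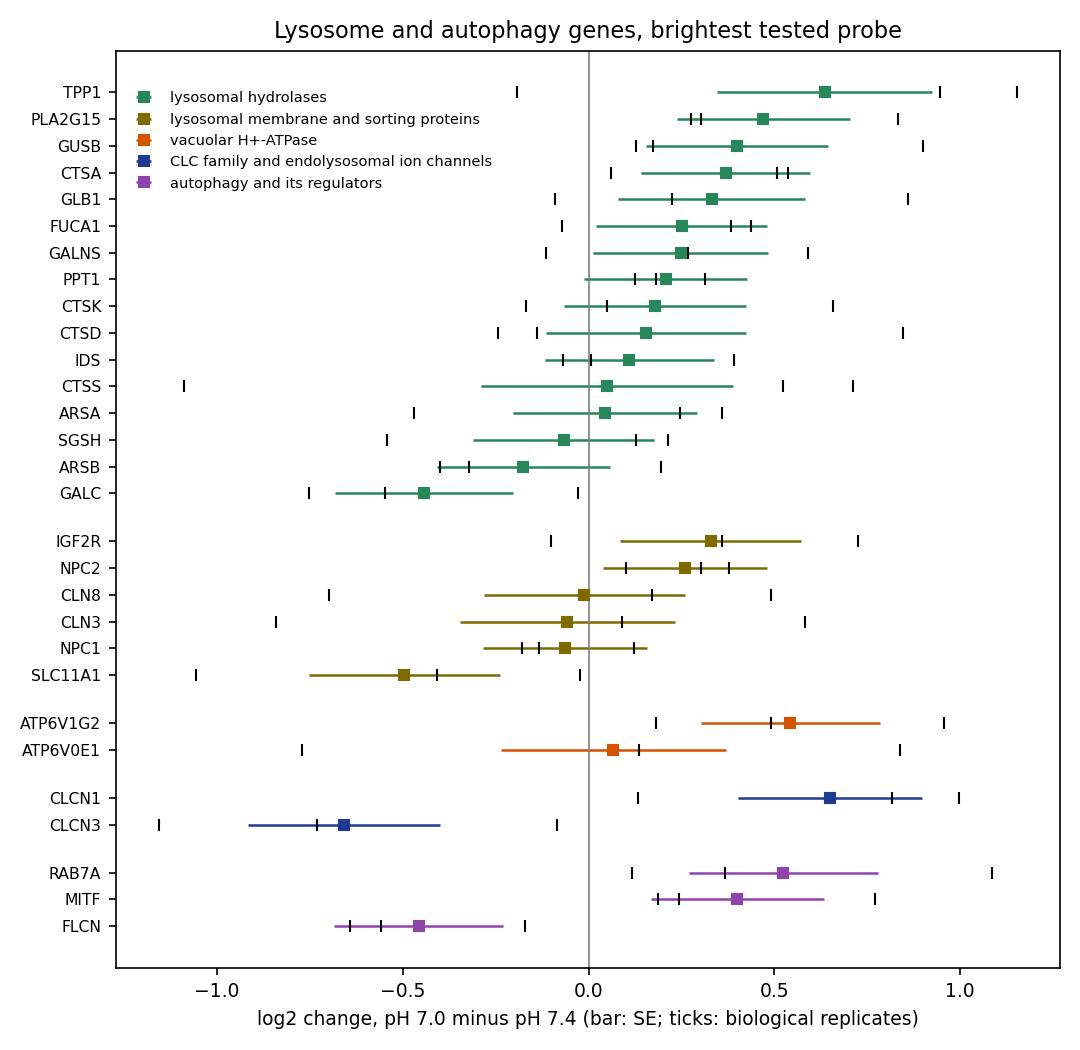
Change of tested lysosome, acidification, CLC and autophagy genes, each by its brightest probe, as log2 value at pH 7.0 minus pH 7.4, with its SE (bar) and the change in each biological replicate (ticks). The hydrolases run from TPP1 at 0.64 to GALC at -0.44, CLCN1 and CLCN3 lie on opposite sides of 0, and none passed the test. With normexp CLCN1, CLCN3 and TPP1 are all below 0. With outlying local backgrounds replaced before normexp, CLCN1 and TPP1 are above 0 and CLCN3 is below it.

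The named genes with the most similar values over the 6 extracts were found from the root mean square (RMS) difference after each probe was centred on its mean, among 598 genes. For TPP1 these were CCND1 (RMS 0.18), PGB1 (0.25) and LTB (0.29), where the median gene was at 0.79. For CTSA, by A_11_P050976, they were IL7 (0.075), NPC2 (0.10) and COL7A1 (0.13), with a median of 0.47. For GLB1, by A_11_P0000022431, they were AK1 (0.12), the lysosomal protease CTSD (0.13) and EPOR (0.15), with a median of 0.55. For GUSB they were SLC39A7 (0.096), INPP5A (0.14) and SELENOT (0.14), with a median of 0.47, and for CLCN3, by A_11_P0000022718, they were BIRC2 (0.19), SLC35A1 (0.22) and GALC (0.23), with a median of 0.68. The other probes of CTSA, GLB1 and CLCN3 were not compared in this way. A flat probe, with the same value in all extracts, would stand at an RMS of 0.80 for TPP1 and 0.46 for GLB1. It would stand at 0.23 for CTSA, 0.28 for GUSB and 0.48 for CLCN3. Except for TPP1, each of these is below the median gene. The likenesses describe 6 extracts that share slides in pairs of conditions, and they include the change with pH itself.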

How the data were processed

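The 6 MDCK extracts were run on 12 one-colour (Cy3) dog arrays, read with Agilent Feature Extraction 10.7.3.1 per the submitters' processing notes. Spot intensity was deposited as processed signal, with the raw median and the local background beside it, per the file headers. The deposited value table holds log2 values whose scale and centring its headers do not state: set against the scanner values, it tracked the 75th-percentile-scaled log2 processed signal after centring each probe on its median, with slopes of at least 0.999623, and column medians of -0.112, -0.150, 0.225, 0.213, -0.226 and 0.0169 (pH 7.0 arrays 1 to 6) and 0.0200, -0.211, 0.213, 0.0789, -0.0860 and 0.0652 (pH 7.4). A direction does not apply to it. It served as an alternative. The genome build is not given in the sources used here.

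Controls were removed, 128 outlier spots became missing values, replicate spots of a probe were averaged as log2, and each array's 75th percentile was subtracted. Probes well above background on at least 6 of 12 arrays were tested (27138). Arrays 1 and 2, 3 and 4, and 5 and 6 of a group hold biological replicates 1, 2 and 3, per the titles and file names, and the duplicates were averaged. The pairing comes from the series' design. Deviations from the group means correlated at 0.394, 0.637 and 0.807 within pairs and at -0.628 to 0.255 between pairs. A probe's deviations within a group cancel out, so positive correlations within pairs partly force negative ones between pairs. Each pair also shares a slide and scan date, so these correlations cannot tell replicate from slide. R 4.3.3 and limma 3.58.1 fitted the change (lmFit and eBayes, two-sided, biological replicate as a block, 9.67 moderated degrees of freedom). P-values were adjusted by Benjamini-Hochberg over the 27138 probes, and 0.05 was the threshold. The fit was also tested on simulated data. With 3 pairs, the number of extracts limits the precision. A missing extract affected 1 tested probe, which is no member.

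Symbols were matched by RefSeq accession to the annotation of the assembly UU_Cfam_GSD_1.0, which served for names only. The members and gene lists were chosen with earlier results of these data known. The naming rule took every member probe, and of each list the tested genes, or the 4 of lowest unadjusted p where more than 6 were tested. Of the membrane and sorting list, 1 tested gene is counted but not reported here. Genes of the marker and reference lists, and others stated as such, were named besides. Alternatives changed the block, duplicates, background correction, scaling, filters, prior and the arrays or replicates left in; normexp used the median signal. The plots used matplotlib 3.10.9 under python 3.11.15.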

Additional observations from a re-analysis of the deposited data

Results flagged for a closer look

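Of 36 sets of 6 arrays (18 probes in 2 groups), 2 held an array far from the other 5, where chance alone would give about 5% of sets. Both are CTSA probes on pH 7.0 array 5, which belongs to biological replicate 3. A_11_P055236 stood at -0.87 there, with a gap to the nearest array of 0.68 of the group's range, and without that array its change went from 0.46 to 0.20. A_11_P207908 stood at -0.77, with a gap of 0.65 of the range, and without that array its change went from 0.39 to 0.16. The arrays of a group are duplicates of 3 extracts, so they are not 6 independent samples.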

How the results depend on the processing

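Over 29 alternatives, the 18 probes gave 521 values, of which 510 kept the direction and the side of the threshold, 7 reversed and 4 passed where the reported value did not. With normexp background correction, 6 changes reversed: TPP1 to -0.38, CTSA A_11_P055236 to -0.14 and A_11_P207908 to -0.15, and GLB1 A_11_P053866, A_11_P053871 and A_11_P053881 to -0.10, -0.067 and -0.0051. It moved the median of all tested probes to -0.19. With the outlying local backgrounds of 11 spots on 2 arrays replaced, an alternative chosen after seeing the data, all 6 were above 0 (TPP1 0.36, CTSA 0.28 and 0.32, GLB1 0.38, 0.34 and 0.30). CTSA A_11_P0000015429 ran from -0.87 to 0.44 with replicates left out, and CLCN3 A_11_P070231 from -1.45 to -1.002. The latter passed at -1.18 with duplicates as a random block, with the all-array filter and with the trended prior. Without the replicate block the changes were the same (-1.18 for this probe) and 0 probes were called. Counts called over the array, 0 higher and 0 lower as reported, were 396 and 294 with the random block, 10 and 4 with normexp, 17 and 7 with the array median, 90 and 44 with the all-array filter and 126 and 70 with the trended prior; leaving out replicates or arrays gave 0 to 203 higher and 0 to 447 lower. TPP1 has no value under the all-array filter. The values of the gene lists under each scaling and background correction were computed after seeing the data. Averaging the tested probes of each gene left every list's count of higher genes as it was except in the vacuolar H+-ATPase (1 of 2 higher) and the reference genes (4 of 4).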

Other observations

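Besides TPP1, 4 tested genes whose loss causes a neuronal ceroid lipofuscinosis are given here, singled out after their values were seen. PPT1, a palmitoyl-protein thioesterase, had a change of 0.21 ± 0.22 (SE) and was higher in all 3 biological replicates, by 0.13, 0.18 and 0.31. Of all tested probes, 18% were also higher in all 3. CTSD, a lysosomal aspartic protease, stood at 0.15 ± 0.27, with 0.85 in biological replicate 3 and values below 0 in the other two. CLN3 and CLN8 stood at -0.057 ± 0.29 and -0.011 ± 0.27. None of the 4 passed (limma adjusted p of at least 0.759 for each).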
